A study of Mus musculus with 9 samples.

Results

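MYC and 33 genes of ribosome biogenesis were read in regulatory T (Treg) cells that lacked the Hippo kinases Mst1 and Mst2, and in wild-type Treg cells. The genes were taken by symbol from a list of 35, of which 34 had a probe set that named that gene alone, out of 22180 genes on the array. Fbl, the methyltransferase of box C/D particles, was dropped because its probe set also names another gene. The Mst1/Mst2-null group (n = 4) carried Foxp3YFP-Cre together with Stk4f/f and Stk3f/f, the loxP-flanked genes of Mst1 and Mst2. The wild-type group (n = 5) carried Foxp3YFP-Cre alone, so YFP and Cre at the Foxp3 locus were common to both groups. All cells were C57BL/6 CD45.2+CD45.1-CD4+YFP+ cells, sorted from RAG1-/- recipients 2 months after transplantation. Each recipient had received that marrow mixed 1:1 with wild-type CD45.1 marrow, so the sorted cells of both groups had shared their host with wild-type cells. Cre at this locus is made under the control of Foxp3, and whether it also acted in other cells was not tested. The labels give neither age nor sex. The labels do not say whether the samples of a group stem from different chimeras, and the p-values cover the spread among these 9 samples alone.

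Ribosomes are built in the nucleolus. RNA polymerase I copies the ribosomal DNA into a long precursor RNA, snoRNA-guided particles modify it, and large assemblies of processing factors cut, fold and clothe it with proteins to give the small and large subunits. MYC is a transcription factor that raises transcription of many of these factors when lymphocytes grow, and resting T cells hold the pathway at a low level until antigen or cytokine drives growth.

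All values are log2 expression values made by RMA, a method that corrects background, equalises the distributions of the arrays and summarises the probes of a gene. Each difference is null minus wild type on that scale. A value is relative to the other transcripts of the same array, so the amount of RNA per cell is not measured, and fewer cells of a type cannot be told apart from less RNA per cell. As checks, Foxp3 was 10.72 ± 0.092 (SD, n = 4) in null cells and 10.70 ± 0.049 (SD, n = 5) in wild-type cells, and Stk4 was 7.64 ± 0.15 in null cells and 7.91 ± 0.10 in wild-type cells. Stk4 differed by -0.27 and did not pass (limma adjusted p = 0.146). Its probe set need not lie in the deleted exons, and no probe set named Stk3 alone. All 8 Treg and T cell markers lay above 4.04, the median of all probe set values. Their mean per array ran from 9.57 to 9.78 in null cells and from 9.90 to 9.96 in wild-type cells. Of the 8, 6 were lower and 2 higher in null cells, with a median difference of -0.23. Among all genes above 4.04, 59.2% were lower. Ikzf2 (Helios) passed as lower. Cd3e (-0.31, limma adjusted p = 0.062) and Cd3g (-0.32, limma adjusted p = 0.124) were lower but did not pass. No marker of another cell type passed, but only 2.32% of all genes did, so lists this short need hold no call. Most were higher in null cells, against 50.7% of all genes. These were 7 of 8 B and plasma cell markers (median difference 0.30), 8 of 9 myeloid markers (0.21) and 6 of 8 CD8 T and NK cell markers (0.11). Over 8 B and plasma cell markers the mean level per array ran from 4.82 to 5.51 in null cells and from 4.49 to 5.38 in wild-type cells. Over 9 myeloid markers it ran from 4.82 to 5.22 in null cells and from 4.51 to 4.81 in wild-type cells, and over 8 markers of CD8 T and NK cells from 4.05 to 4.39 in null cells and from 3.95 to 4.25 in wild-type cells. Of these markers 1 B cell, 3 myeloid and 5 CD8 T or NK cell genes were under the median of all probe set values. The part of these markers in the results was not tested.

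The transcript levels of MYC and of the ribosome biogenesis genes were mostly close to those of wild-type cells. The largest differences were in 1 probe set each of Ppan and Nop56. The brighter Ppan probe set was 2.05-fold and the other 1.25-fold higher in null cells, neither past the test in the reported fit, and Nop56 passed only if its probe sets were averaged. None of the 34 genes passed limma after Benjamini-Hochberg adjustment across the 22180 genes (adjusted p under 0.05), where 2.32% of all genes passed, 0.428% of all genes as higher and 1.89% as lower in null cells. With only the 11350 genes above the median of all probe sets tested, 705 passed, among them 1 of the 34 (Ppan). Of the 515 calls over all genes 95 were higher in null cells, against 170 of 476 after quantile normalisation. At an unadjusted p under 0.05 there were 5 of the 34 (14.7%), against 14.9% of all genes. The differences had a median of 0.022 (quartiles -0.060 and 0.089), with 18 genes higher and 16 lower, and the median over all genes was 0.0023. All 34 genes lay above the median of all probe sets, and the 11350 genes above it had a median of -0.037, with 40.8% higher, against 52.9% of the 34 genes.

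The precision of the arrays can be read from the 95% intervals of the differences, taken gene by gene. For 33 of the 34 genes the interval lay within a 1.5-fold change in either direction, against 88.9% of all genes and 82.3% of the 11350 genes above the median of all probe sets. The exception was Ppan. These intervals are not adjusted for the number of genes. In 22 of the 34 genes at least 2 arrays carried the same value to the last deposited digit, a larger share than the 46.3% of all probe sets. Polr1a had the same value in 6 of 9 arrays.

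**Figure D1:**
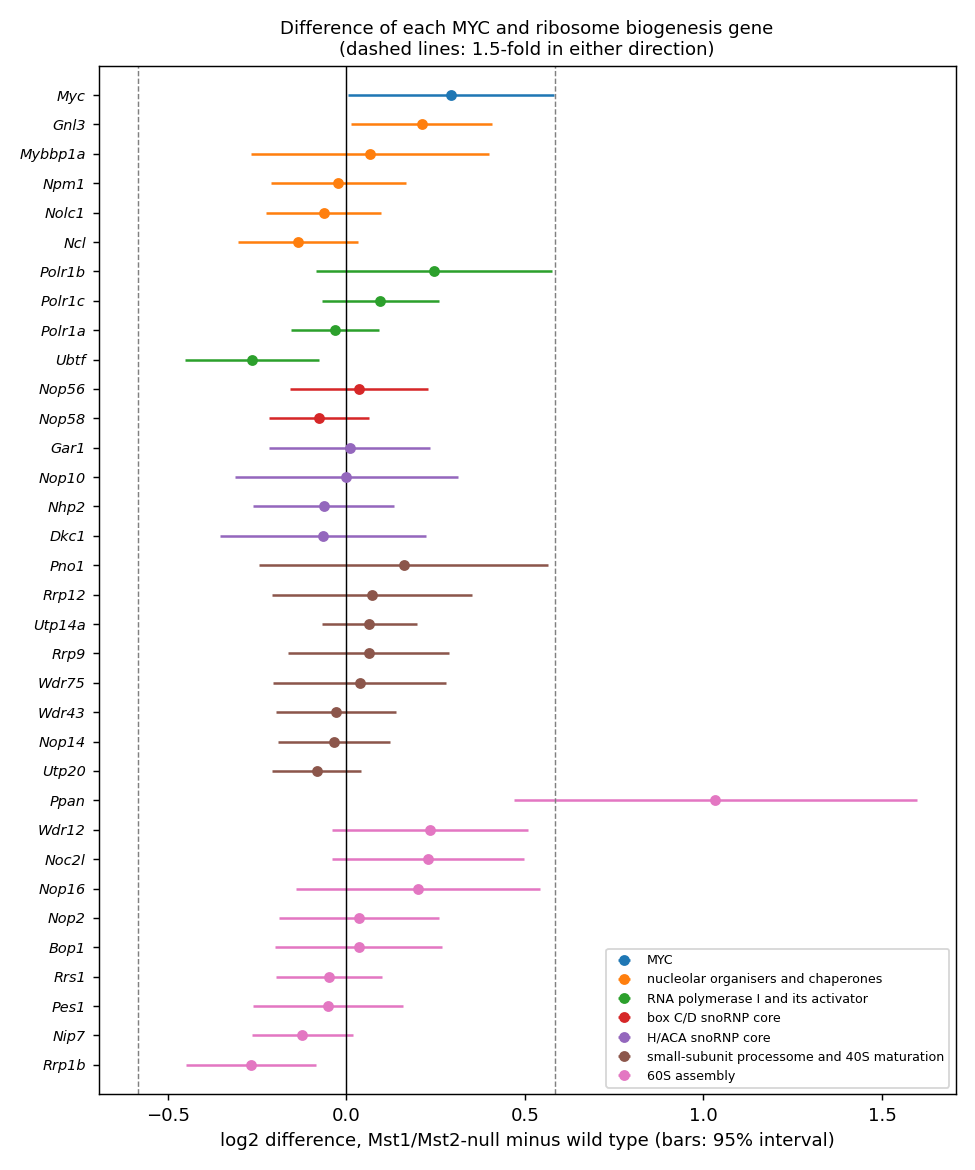
Difference of each of the 34 genes (point, log2 scale, null minus wild type) with its 95% limma interval (bar), grouped by role. Dashed lines mark 1.5-fold in either direction. The interval of Ppan, at the right, is the one that crosses a dashed line.

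Myc was 8.71, 8.65, 8.65 and 8.97 in the null arrays and 8.70, 8.11, 8.64, 8.25 and 8.54 in the wild-type arrays. The null values lay in the upper part of the wild-type range or above it, but the groups overlapped, and 2 wild-type arrays (2 and 4) were low. The means were 8.74 ± 0.15 (SD, n = 4) in null cells and 8.45 ± 0.26 (SD, n = 5) in wild-type cells, a difference of 0.29 ± 0.13 (SE) with an interval from 0.0043 to 0.58 (limma adjusted p = 0.327). This interval ends just short of a 1.5-fold increase. In the fit over all probe sets the interval of Myc ran from -0.016 to 0.600, which includes a 1.5-fold increase.

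Among nucleolar organisers, Gnl3 (nucleostemin, a GTP-binding protein of dividing cells) was 8.02, 8.19, 7.93 and 8.11 in null cells and 7.93, 7.59, 7.93, 7.90 and 7.93 in wild-type cells. Each null value lay above each wild-type value, though the nearest pair was separated only in the third decimal. The difference of 0.21 did not pass (limma adjusted p = 0.294). By the brightest probe set of each gene, it was the only one of the 34 whose null values were all higher. Groups without overlap in that direction made up 1.76% of all genes. Ncl (nucleolin, which binds ribosomal DNA and precursor RNA) was 9.92, 9.93, 9.76 and 9.76 in null cells and 9.97, 9.83, 9.93, 10.03 and 10.13 in wild-type cells. These ranges overlapped, with a difference of -0.14 (interval from -0.30 to 0.032). Npm1 (nucleophosmin, a histone and ribosome chaperone) differed by -0.022, Nolc1 (a chaperone of snoRNA particles) by -0.064 and Mybbp1a (a MYB-binding nucleolar protein) by 0.066.

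In the RNA polymerase I group, Ubtf stood lowest. It encodes UBF, which keeps ribosomal DNA open for the polymerase. Its values were 7.83, 7.78, 7.79 and 7.43 in null cells and 7.99, 7.96, 8.002, 7.99 and 7.93 in wild-type cells. All null values were below all wild-type values, and null array 4 lay well under the other 3. The difference was -0.26 (interval from -0.45 to -0.077) and did not pass (limma adjusted p = 0.156). No other of the 34 genes had all its null values lower, a pattern seen in 4.4% of all genes.

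The subunits of the polymerase differed in sign and none passed. Polr1b, the second largest subunit, was 5.81, 5.54, 5.46 and 5.14 in null cells and 5.33, 4.88, 5.47, 5.12 and 5.39 in wild-type cells, overlapping ranges with a difference of 0.25 (interval from -0.084 to 0.58, limma adjusted p = 0.503). Polr1a, the largest subunit, differed by -0.032 and Polr1c, a subunit that RNA polymerase III also uses, by 0.094.

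The core proteins of snoRNA particles were close to wild type. Nop58 of the box C/D core differed by -0.077. The H/ACA core, which carries the pseudouridine synthase dyskerin, differed by -0.065 for Dkc1 itself, -0.063 for Nhp2, 0.0091 for Gar1 and -0.000304 for Nop10. Intervals of these 4 genes lay between -0.35 and 0.31.

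Nop56, the partner of Nop58 in the box C/D core, had 3 probe sets that did not move together. The brightest differed by 0.035 (8.62 ± 0.056 in null cells, n = 4, and 8.59 ± 0.16 in wild-type cells, n = 5, SD), and a dimmer one (probe set 17376272) by 0.055. The third, probe set 17376274, was 6.33, 6.81, 5.92 and 6.20 in null cells and 5.89, 5.59, 5.08, 5.00 and 5.23 in wild-type cells. Here each null value exceeded each wild-type value, with a difference of 0.96 (interval from 0.45 to 1.47). It did not pass in a fit over all 41345 probe sets (limma adjusted p = 0.094), in which 1.28% of probe sets passed and 0 of the 39 probe sets of these genes. If the 3 probe sets were averaged, Nop56 passed as higher (difference 0.35, limma adjusted p = 0.0233). Which stretch of the gene it reads was not stated in the annotation.

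Genes of the small-subunit processome, which folds and cuts the 18S part of the precursor, ranged from -0.084 to 0.16. Utp20 (-0.084), Nop14 (-0.035) and Wdr43 (-0.030) were the lower ones. Pno1, which helps the last cut of 18S RNA, differed by 0.16, but its null values ran from 5.00 to 5.89 and its wild-type values from 5.05 to 5.63. Rrp12 (0.071), Utp14a (0.064), Rrp9 (0.062) and Wdr75 (0.037) made up the rest. The smallest adjusted p in this group was 0.557.

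The largest difference among the 34 genes was in the 60S assembly group. Ppan, the mouse gene of the conserved factor SSF1 that acts in large-subunit maturation, was 8.36, 8.89, 7.89 and 8.92 in null cells and 7.82, 7.51, 7.95, 6.97 and 7.16 in wild-type cells. Null arrays 1, 2 and 4 exceeded every wild-type array, while null array 3 lay inside the wild-type range. The difference was 1.03 ± 0.25 (SE), or 2.05-fold, with an interval from 0.47 to 1.60, and it did not pass (limma adjusted p = 0.0707). It passed when null array 3 was left out (limma adjusted p = 0.0407), with only genes above the median of all probe sets (0.0398) and after quantile normalisation of the gene values (0.0447). It did not pass in the other alternatives, with a limma adjusted p of 0.28 with the replicate block, 0.30 without null arrays 2 and 4 (difference 0.64), 0.0603 when both probe sets were averaged (difference 0.68), and 0.126 to 0.151 without null array 1, 2 or 4 or wild-type array 2, 4 or 5.

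The second Ppan probe set gave the same direction at a smaller size. It was 7.22, 7.003, 7.003 and 7.44 in null cells and 6.97, 6.79, 6.93, 6.87 and 6.69 in wild-type cells. Here the groups did not overlap, by a margin of a few hundredths, and the difference was 0.32 (interval from 0.078 to 0.56, limma adjusted p = 0.237 over all probe sets). RefSeq places snoRNA genes within Ppan, as within Nop56, and whether any of these probe sets reads an intron or a snoRNA was not stated in the annotation.

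**Figure D2:**
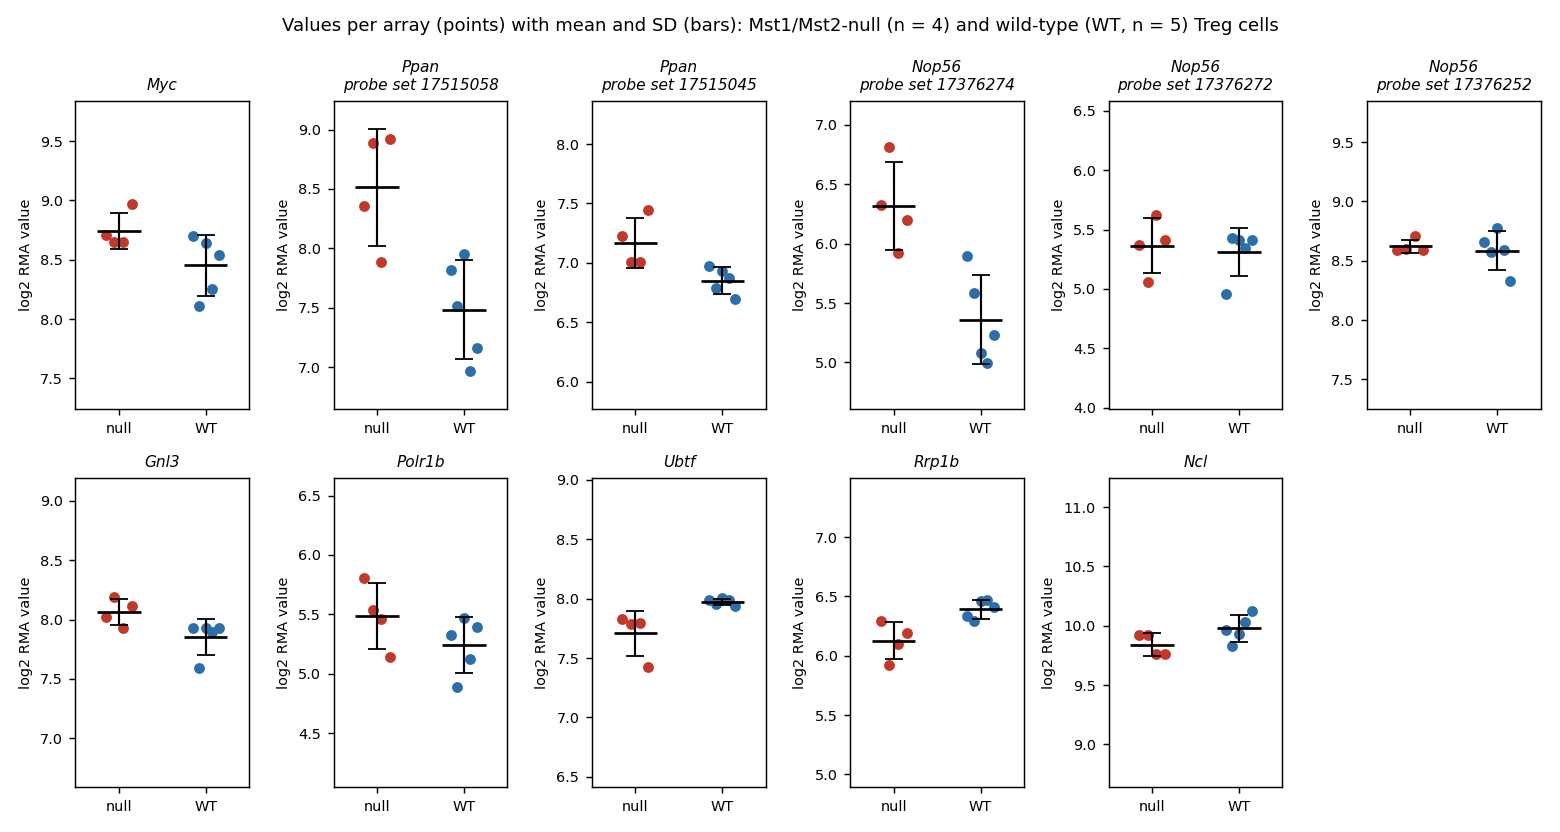
Values per array (points, log2 RMA) with mean and SD (bars) for Myc, both Ppan probe sets, the 3 Nop56 probe sets, Gnl3, Polr1b, Ubtf, Rrp1b and Ncl, with null cells (n = 4) left and wild-type cells (WT, n = 5) right. Every panel has the same span. The groups stand apart in probe set 17515045 of Ppan, probe set 17376274 of Nop56, Gnl3 and Ubtf.

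Rrp1b, a nucleolar protein related to the yeast large-subunit factor Rrp1, was 6.29, 5.92, 6.10 and 6.19 in null cells and 6.33, 6.29, 6.46, 6.47 and 6.41 in wild-type cells. The groups met at 6.29, the highest null and the lowest wild-type value. The difference of -0.27 (interval from -0.45 to -0.085) did not pass (limma adjusted p = 0.141). The PeBoW complex, which is needed to process 28S RNA, showed no shared shift: Bop1 differed by 0.034, Pes1 by -0.052 and Wdr12 by 0.23. Noc2l (0.23), Nop16 (0.20), Nip7 (-0.12) and Rrs1 (-0.049) were the remaining genes with no value past the threshold. The second probe sets of Rrs1 (0.044) and Npm1 (0.086) had the opposite sign to the first, and none of these 4 differences passed.

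The canonical MYC site, the E-box CACGTG, reads the same on both strands. It was present in the 250 bases before a start in 1 of the 29 genes with a promoter sequence in RefSeq (3.45%), against 7.61% of 17491 protein-coding genes. That gene was Nop2, a methyltransferase of the large-subunit RNA, which differed by 0.034. The 100 bases around its site are shown as the single member that holds the motif, from chr6:125131776-125131875 of GRCm38.p6 on the plus strand, with the E-box in capitals 60 bases before the start.
Nop2: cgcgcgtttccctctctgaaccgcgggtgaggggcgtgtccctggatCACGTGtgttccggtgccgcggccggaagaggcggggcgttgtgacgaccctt
A motif match is a description of the letters in this window only.

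Arrays of a group differed among themselves. The mean over the 34 genes, each taken relative to its own mean over all arrays, was -0.035, 0.143, -0.051 and 0.057 in null arrays 1 to 4. It was 0.058, -0.115, 0.022, -0.052 and -0.026 in wild-type arrays 1 to 5. Null array 2 was the highest of all and wild-type array 2 the lowest, and the group means differed by 0.051. Null array 2 held the highest value of 10 of the 34 genes (29.4%, against 17.3% of all genes), among them Mybbp1a, Wdr75, Wdr12 and Nop10. Wild-type array 2 held the lowest value of 9 (26.5%, against 12.5% of all genes). Standard deviations were larger in null cells for 22 of the 34 genes (64.7%). The share was 59.2% of all genes and 66.7% of the 11350 genes above the median of all probe sets. Without null array 2 the median difference of the 34 genes was -0.047, with 14 higher and 20 lower. It was -0.0052 without wild-type array 2, so the sign of this small median turned when either array was left out.

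**Figure D3:**
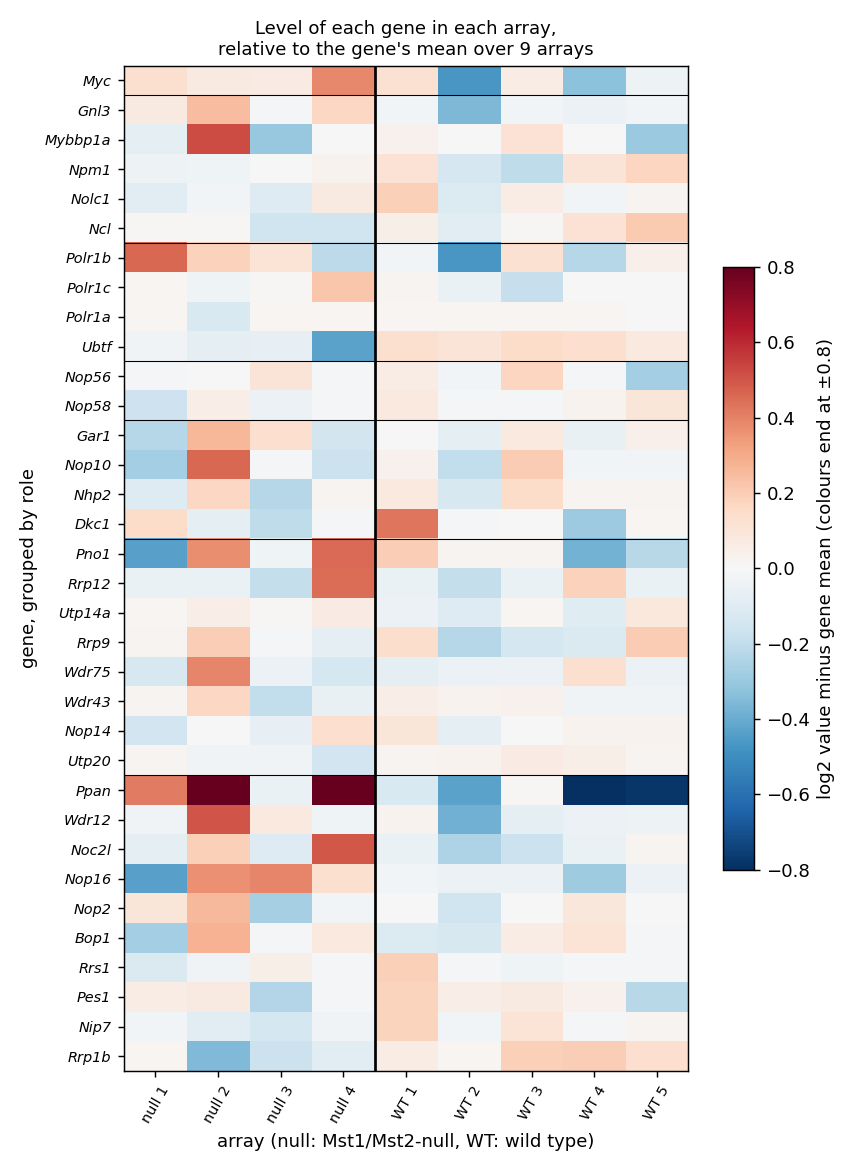
Level of each of the 34 genes in each array, centred on the mean of that gene across the 9 arrays (colour, log2 scale), with null arrays left of the line and wild-type arrays (WT) right. Null array 2 is high in many rows, wild-type array 2 is low in many, and Ppan has the widest range.

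Hspa1a and Hspa1b, stress-induced chaperone genes that vary widely between these arrays, were low in null array 1 (3.18 and 4.21) and wild-type array 2 (2.80 and 3.32) and intermediate in wild-type array 1 (5.18 and 6.70). The other arrays held values from 8.11 to 10.48. The mean over the 34 genes was lowest in wild-type array 2 (-0.115), and it was -0.035 in null array 1. It was highest in null array 2 (0.143), which had high heat shock levels. Wild-type array 1 had the second highest mean (0.058). Null array 3 (-0.051) and wild-type array 4 (-0.052) had low means with high heat shock levels. Any link between heat shock levels and these means was not tested. With the level of both heat shock genes as a covariate 0 of the 34 genes passed and the median difference was 0.0076. The 15 measured cell cycle markers had 0 calls and a median difference of -0.125, and Mki67, a marker of cycling cells, was 6.13 ± 0.35 (SD, n = 4) in null cells and 6.36 ± 0.27 (SD, n = 5) in wild-type cells.

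The wider pathway was read in 157 further genes from 6 lists, of which 1 rose and 1 fell (1.27%, against 2.32% of all genes). An unadjusted limma p under 0.05 was found in 23 (14.6%), near the 14.9% of all genes. Eif4a1, the RNA helicase of translation initiation and the 1 call among 25 other MYC-induced growth genes, rose 1.41-fold. It was 10.13, 10.32, 10.01 and 10.19 in null cells and 9.61, 9.65, 9.71, 9.58 and 9.80 in wild-type cells, with no overlap (difference 0.49 ± 0.078 SE, limma adjusted p = 0.0114). The call was lost when its probe sets were averaged (difference 0.32, limma adjusted p = 0.055) and with the replicate block (limma adjusted p = 0.067). Odc1, the ornithine decarboxylase that starts polyamine synthesis and a long-known MYC target, was chosen after its values were seen. It was 6.10, 5.70, 6.71 and 6.47 in null cells and 7.10, 7.55, 6.81, 7.19 and 6.96 in wild-type cells. All null values were lower, and the difference of -0.88 (interval from -1.33 to -0.43) missed the threshold (limma adjusted p = 0.0558). It passed in 3 of 18 alternatives, with adjusted p from 0.032 to 0.216. The median of this list was -0.062, with 8 genes higher and 17 lower.

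Znrd1, which encodes a small subunit of RNA polymerase I, fell by 0.37 on the log2 scale and was the 1 call among 16 further genes of the polymerase and its factors. It was 6.26, 6.41, 6.01 and 6.23 in null cells and 6.67, 6.59, 6.49, 6.64 and 6.62 in wild-type cells (limma adjusted p = 0.0486). It passed in only 5 of 18 alternatives (adjusted p from 0.0242 to 0.137). The median of its list was 0.014. Whether its probes also read Znrd1as, an RNA of the opposite strand, was not stated in the annotation.

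The partners and antagonists of MYC had no call among 14 genes (median 0.020). Mxi1, which competes with MYC for MAX, was 7.53, 7.02, 8.24 and 8.51 in null cells and 8.69, 8.32, 8.63, 8.41 and 8.32 in wild-type cells, a difference of -0.65 with null arrays 1 and 2 the lowest (limma adjusted p = 0.268). Mxd1, of the same class of repressors, differed by 0.29 (0.40). Among 10 assembly factors of snoRNA particles (median -0.011) the smallest p-values belonged to Nufip1 (difference 0.17, limma adjusted p = 0.253) and Znhit6 (-0.16, 0.309).

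**Figure D4:**
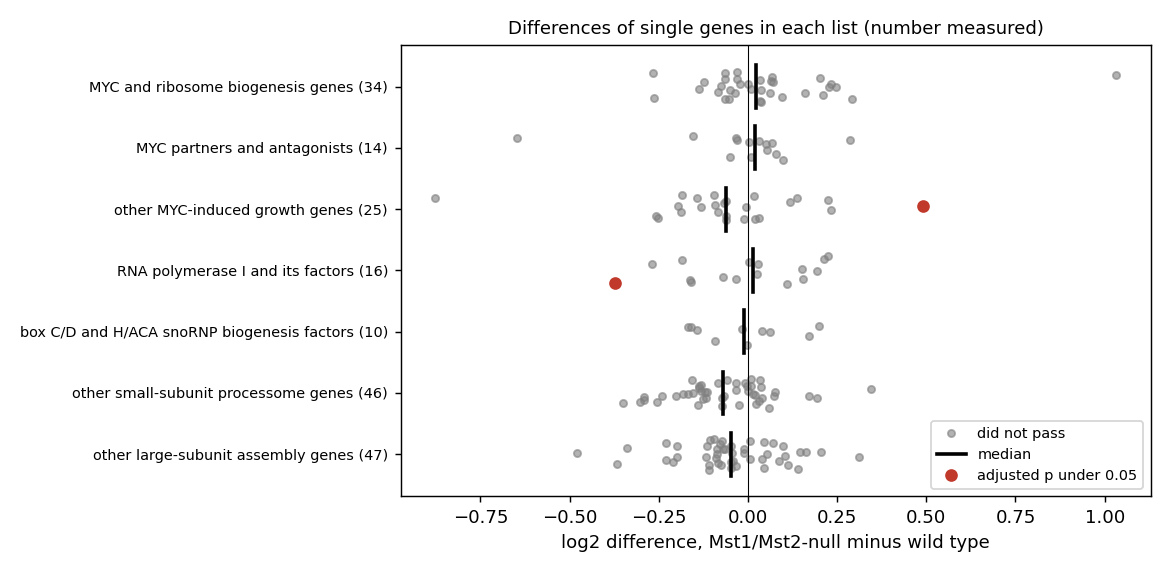
Log2 difference (null minus wild type) of each gene in the MYC and ribosome biogenesis list and in 6 further lists, with the median (black line). Red points passed the test: Eif4a1 at 0.49 and Znrd1 at -0.37.

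Other subunit assembly genes had no call. All of them lay above the median of all probe sets, and of all 11350 genes above it 59.2% were lower in null cells (median -0.037). Of 46 further small-subunit genes 16 were higher and 30 (65.2%) lower (median -0.070), and the smallest p-values belonged to Wdr3 (-0.30, limma adjusted p = 0.101) and the helicase gene Ddx10 (-0.35, 0.102). Of 47 further large-subunit genes 16 were higher and 31 (66.0%) lower (median -0.048), and the smallest p-values belonged to Gnl3l, a relative of Gnl3 (-0.48, 0.0809), and Nmd3, the export adaptor of the large subunit (-0.21, 0.227). Null array 2 again stood above the other null arrays: the mean of the large-subunit list was -0.075, 0.079, -0.096 and -0.015 in null arrays 1 to 4, against 0.089, -0.025, 0.062, 0.0057 and -0.024 in wild-type arrays 1 to 5. With 1 array left out in turn, the share of lower genes ran from 56.5% to 80.4% in the small-subunit list, from 55.3% to 74.5% in the large-subunit list and from 57.9% to 60.6% in all genes above the median of all probe sets. The highest share of each came without null array 2, the highest null array of both lists, whose removal can only lower their null means. Without it Gnl3l passed as lower (limma adjusted p = 0.0186), as did the nucleolar helicase gene Ddx21 (limma adjusted p = 0.0178). Ddx21 was chosen after its values were seen. With all arrays it differed by -0.34 and did not pass (limma adjusted p = 0.273). The groups overlapped, and its value in null array 2 (8.94) lay above every wild-type value (highest 8.88).

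**Figure D5:**
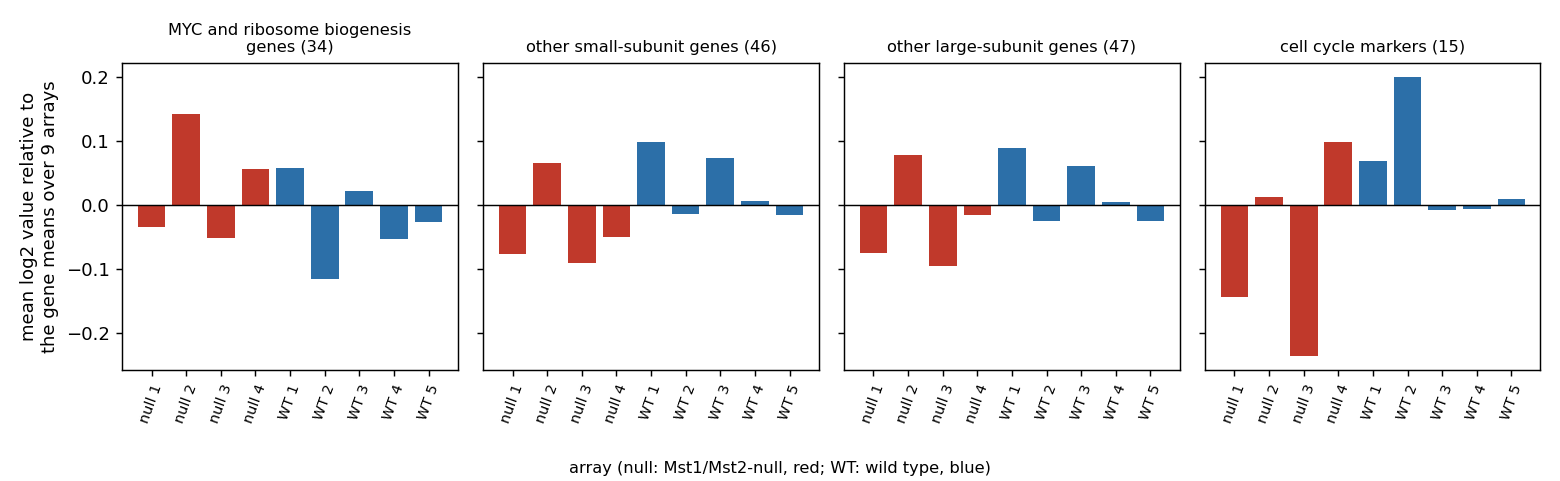
Mean log2 value per array relative to the gene means over 9 arrays, for the 34 genes, 46 further small-subunit genes, 47 further large-subunit genes and 15 cell cycle markers (null arrays left in red, wild-type arrays right in blue). Null array 2 is the highest null array in the first 3 panels, whereas wild-type array 2 is lowest in the first panel and highest in the last.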

How the data were processed

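The deposited values are log2 expression values, 1 per probe set and array, made by the authors. The submitters' processing notes name RMA and Affymetrix Expression Console 1.1. The table held 41345 probe sets in 9 arrays, and the platform annotation given with it named 1 gene for 23521, several for 1814 and none for 16010. Each gene was represented by its brightest probe set on average (22180 genes, 1082 of them with over 1 probe set). The genome build of the array design was not given in the sources used here. Precision is limited by having 9 arrays.

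Null and wild-type arrays were compared with limma 3.58.1 in R 4.3.3 (lmFit and eBayes, two-sided, no covariate or filter), with p-values adjusted by Benjamini-Hochberg across all genes, and the code was tested on simulated data. Intervals are gene by gene and not adjusted. Values were given per array for Myc, Ppan, genes without overlap, and the 3 largest differences in each direction. From each further list up to 4 passing genes, or the 2 with the smallest p, were named. The genes and lists were chosen with earlier results of these data known. Older symbols were matched through RefSeq synonyms, and 157 of 170 further genes were measured. The 19 alternatives were a replicate block, averaged or unjoined probe sets, exclusion of dim genes, quantile normalisation, centring on the median, other eBayes and weight settings, a heat shock covariate, and arrays left out. Tables and plots were made in Python 3.11.15 with pandas 2.3.3 and matplotlib 3.10.9.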

Additional observations from a re-analysis of the deposited data

Results flagged for a closer look

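Single arrays stood apart from the rest of their group, by Dixon's test at the 95% level, in 15 of 124 sets of values examined. Chance gives about 1 in 20 for values without ties. In wild-type array 2, Gnl3 was 7.59 (others from 7.90 to 7.93), Wdr12 was 5.32 (others from 5.63 to 5.73), the second Npm1 probe set was 6.94 (others from 7.28 to 7.41) and Gnl3l was 6.71 (others from 6.86 to 6.91). In wild-type array 1, Rrs1 was 6.08 (others from 5.86 to 5.87) and probe set 17376272 of Nop56 was 4.95 (others from 5.34 to 5.43). In wild-type array 3, Stk4 was 8.09 (others from 7.84 to 7.88). In wild-type array 4, Nop16 was 6.75 (others from 6.99 to 7.01) and Wdr75 was 7.86 (others from 7.66 to 7.69). In wild-type array 5, Mybbp1a was 6.42 (others from 6.72 to 6.83) and Polr1a was 6.88, where the other 4 were at 6.90.

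In null array 2, Polr1a was 6.76 where the other 3 were at 6.90, and Snord82, within Ncl, was 7.08 (others from 7.80 to 7.87). In null array 3 the brightest Nop56 probe set was 8.70 (others from 8.59 to 8.60). In null array 4, Ubtf was 7.43 (others from 7.78 to 7.83). For Polr1a, Rrs1 and Nop56 the others of the group differed by so little that a small departure was enough. In Polr1a, Rrs1, Nop16 and Wdr75 several of the others shared the same value, so the chance rate does not strictly hold for them.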

How the results depend on the processing

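No gene of the 34 passed in 15 of the 19 alternatives. Of the other 4, averaging probe sets gave 1 (Nop56), and the dim-gene filter, quantile normalisation and leaving out null array 3 each gave 1 (Ppan), so leaving out arrays gave from 0 to 1. The number of genes with an interval within 1.5-fold ran from 28 to 33. The median difference, 0.0217 in the reported fit, ran from -0.0617 without null arrays 2 and 4 to 0.0878 after quantile normalisation. All-gene calls were 178 with the replicate block and from 271 to 594 with 1 array left out, against 515. After quantile normalisation 170 of 476 calls were higher in null cells, against 95 of 515. Further pathway calls, 2 in the reported fit, were 5 without null arrays 2 and 4, 4 with the dim-gene filter, 0 with the replicate block, from 1 to 4 with 1 array left out, and 1 each with probe sets unjoined, the heat shock covariate, averaged probe sets, quantile normalisation or median centring. The replicate numbers were not shown to pair the samples: deviations of same-numbered arrays correlated at 0.042, -0.115, 0.0107 and 0.0409.

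Small differences that did not pass changed sign in these cases. Quantile normalisation gave Nolc1 0.00864, Nop10 0.0521, Nop14 0.0403, Nop58 0.00101, Npm1 0.0175, Pes1 0.00977, Polr1a 0.0419, Rrs1 0.0203 and Wdr43 0.0161. Leaving out null arrays 2 and 4 gave Bop1 -0.125, Gar1 -0.0443, Mybbp1a -0.159, Nop2 -0.0663, Pno1 -0.163, Polr1a 0.00359, Rrp12 -0.0879 and Wdr75 -0.0695. Array weights gave Bop1 -0.016, Gar1 -0.00598, Nop2 -0.00832 and Wdr75 -0.0165, and the replicate block gave Mybbp1a -0.00125, Nop56 -0.0293 and Npm1 0.0178. The heat shock covariate gave Gar1 -0.00306 and averaging gave Npm1 0.032. With 1 array left out, Bop1 ran from -0.0528 to 0.131, Dkc1 from -0.145 to 0.0351, Gar1 from -0.078 to 0.0871, Mybbp1a from -0.096 to 0.18, Nhp2 from -0.13 to 0.00105, Nop10 from -0.154 to 0.0896, Nop14 from -0.0865 to 0.00864, Nop2 from -0.0465 to 0.129, Nop56 from -0.0293 to 0.0819, Npm1 from -0.0753 to 0.0178, Pes1 from -0.114 to 0.0162, Polr1a from -0.0433 to 0.00359, Rrp12 from -0.065 to 0.147, Wdr43 from -0.0914 to 0.0311 and Wdr75 from -0.0868 to 0.0899. Myc (0.208 to 0.355), Gnl3 (0.123 to 0.285), Ppan (0.641 to 1.24), Ubtf (-0.304 to -0.163), Rrp1b (-0.322 to -0.192) and Ncl (-0.172 to -0.0729) kept their sign in all 19. The same held for Nip7, Noc2l, Nop16, Polr1b, Polr1c, Rrp9, Utp14a, Utp20 and Wdr12. The causes were not tested.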

Other observations

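Several of these genes also carry snoRNA genes within their bounds, where snoRNAs are released from the host's introns. RefSeq (assembly GRCm38.p6) places 20 snoRNA genes within 7 of the 34 genes, and 9 of these, in 5 hosts, had a probe set of their own. This set was chosen after values had been seen. None passed with limma in the fit over all probe sets, none had an unadjusted p under 0.05, and 6 were higher and 3 lower in null cells. Snord69, within Gnl3, was 6.16, 4.27, 4.39 and 5.62 in null cells and 4.99, 4.78, 4.24, 4.52 and 4.17 in wild-type cells, a difference of 0.57 with null arrays 1 and 4 above every wild-type array. Snord11, within Nop58, differed by 0.50, with null array 1 the highest (8.03, against 6.56 to 6.84 in the other null arrays and 6.36 to 6.68 in wild-type cells). Snord110, within Nop56, ran from 4.33 to 7.05 in null cells and from 4.77 to 6.19 in wild-type cells.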
